A study of Homo sapiens with 6 samples.

Results

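The comparison described here set 2 arrays of MDA-MB-231 cells carrying the hairpin shS100A10_1 against 2 arrays of the same cells carrying the control hairpin shNCT, 4 of the 6 arrays of the study. MDA-MB-231 is an established line of human breast cancer cells, triple-negative and mesenchymal in character. The S100A10 hairpins were brought in by lentivirus, and every group, the control included, was grown in RPMI1640 with 10% serum, penicillin, streptomycin and 2.5 µg/ml puromycin, with no other treatment. The remaining 2 arrays carried shS100A10_5, a second hairpin against the same gene; they entered the estimate of the spread and the mean levels over 6 arrays, and their own changes are given beside the test of the difference between the hairpins. The labels do not say whether a line was a pool or 1 clone, whether the arrays within a group stem from different cultures, or what RNA the control hairpin matches. The p-values therefore cover just the variation among these arrays, and that may be technical. All 16965 probe sets of the whole-transcript array were tested, and 15674 of them carry a gene symbol, for 15669 genes.

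S100A10 encodes p11, an S100 protein that has lost the ability to bind calcium. A pair of p11 chains joins a pair of annexin A2 chains in a tetramer at the inner face of the plasma membrane, and the tetramer at the cell surface binds plasminogen and its activator, so that plasmin forms there. The complex also takes part in bringing channels and receptors to the membrane. A short hairpin RNA is cut by Dicer and loaded into the RNA-induced silencing complex, which cleaves the transcripts it matches.

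The arrays were alike in scale, with median intensities between 231.9 and 238.5. Replicate arrays differed by an SD of 0.287 log2 units for shNCT and 0.292 for shS100A10_1 over all probe sets. Of the markers of the line, VIM (16.50), CAV1 (15.11), AXL (14.77), FOSL1 (14.56), CD44 (13.77) and EGFR (11.13) stood high as mean log2 intensity on the control arrays, whereas SPARC (4.30) was low. Of 9 luminal breast markers, the keratin genes KRT8 (15.39), KRT18 (13.95) and KRT19 (13.71) were bright and EPCAM (9.87) and GATA3 (6.93) intermediate, whereas AGR2 (5.33), FOXA1 (4.79), TFF1 (4.08) and CDH1 (3.78) were low. Of 9 leukocyte markers, CD74 (13.13) and CD68 (12.64) were bright, and the other 7, the pan-leukocyte gene PTPRC (5.22) among them, lay between 4.49 and 7.94. Summed linear intensity was 861 and 827 with shNCT and 778 and 953 with shS100A10_1 for 6 fibroblast markers. For 4 endothelial markers, low on all arrays, it was 243 and 268 against 191 and 187, and the part of these markers in the results was not tested.

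S100A10, on chromosome 1, was among the brightest genes of the control cells, above 99.9% of all genes, and its log2 intensity was 16.44 and 16.50 on the shNCT arrays and 10.94 and 10.59 on the shS100A10_1 arrays. It fell by 5.70 on the log2 scale (SE 0.21, n = 2 arrays a group; limma, adjusted p = 1.71e-06), which left 1.92% of the control intensity. ANXA2, the gene of the annexin A2 partner, had log2 intensities of 17.05 and 17.20 with shNCT and 17.05 and 17.12 with shS100A10_1, a difference of -0.04 (SE 0.17; limma, adjusted p = 0.978) with overlapping groups. None of the 6 measured genes next to S100A10 passed the test. C2CD4D (0.07), THEM5 (0.09) and THEM4 (0.06) lie before it in the RefSeq order, and S100A11 (0.08), TCHHL1 (-0.21) and FLG (-0.12) after it, with log2 differences in parentheses.

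In all, 32 of 16965 probe sets passed the threshold (limma, adjusted p under 0.05, 0.189%), with 17 higher (0.1%) and 15 lower (0.0884%). Each was a protein-coding gene that differed 2-fold or more, as 0.43% of all probe sets did, and whose hairpin and control arrays did not overlap, a separation that 42.4% of all probe sets showed. The 32 genes were spread over 15 chromosomes, with at most 4 on any chromosome. Without shNCT replicate 1 the count was 9, without shNCT replicate 2 it was 8, without shS100A10_1 replicate 1 or 2 it was 13 or 15, and without either shS100A10_5 array it was 16. It was 60 without the dimmest 25% of probe sets, 89 with array weights and 98 with an intensity trend. Other than S100A10, AGMO, AGR2, CST1, MAL2, MPZL2, OASL and TNFSF15 passed with each array left out in turn, and each of the other called genes missed the threshold in at least 1 such fit.

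**Figure D1:**
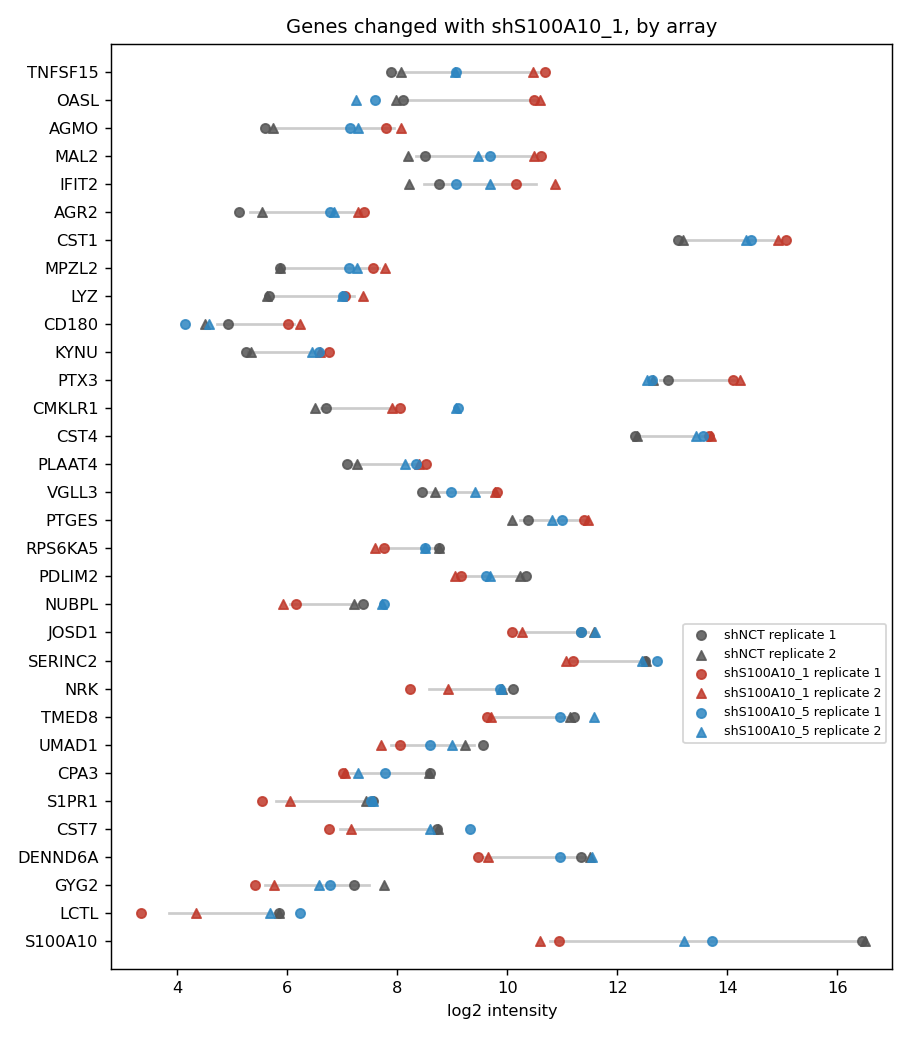
Log2 intensity (horizontal axis) of the 32 genes that passed the test, with 1 symbol per array for shNCT, shS100A10_1 and shS100A10_5 and a grey line between the means of shNCT and shS100A10_1. The 17 rises are at the top and the 15 falls at the bottom, and in every row the 2 shS100A10_1 arrays lie outside the range of the 2 shNCT arrays.

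The called genes are grouped below by what their products do, a grouping made after their values were seen. Rises among secreted and immune genes were led by TNFSF15, which encodes the cytokine TL1A. Its log2 intensity was 7.89 and 8.06 with shNCT and 10.69 and 10.46 with shS100A10_1, and it rose by 2.60 (SE 0.17, 6.05-fold; limma, adjusted p = 0.00027). PTX3, a secreted pattern recognition protein of the pentraxin family, stood at 12.92 and 12.64 in the controls and 14.09 and 14.22 with the hairpin, a rise of 1.38 in a gene that was already bright. LYZ, the gene of lysozyme, went from 5.67 and 5.62 to 7.05 and 7.37. CD180, a Toll-like receptor relative known from B cells, went from 4.92 and 4.51 to 6.01 and 6.23, and was the only rise whose control level lay under the lower quartile of all probe sets, 4.97. CMKLR1, the receptor for the chemoattractant chemerin, went from 6.71 and 6.51 to 8.04 and 7.91. For LYZ, CD180 and CMKLR1 the rises were 1.56, 1.40 and 1.37 (SE 0.17 to 0.22). Summed linear intensity of the 9 measured leukocyte markers was 15408 and 16427 with shNCT and 17650 and 16902 with shS100A10_1. Without LYZ it was 15357 and 16378 against 17518 and 16736. CD74 and CD68, bright on the control arrays, make up most of these sums, so the dim markers hardly enter them. Whether the leukocyte markers have a part in the rises above was not tested.

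Enzymes of lipid and tryptophan metabolism also rose. AGMO, alkylglycerol monooxygenase, cleaves the ether bond of ether lipids and needs tetrahydrobiopterin. Its log2 intensity was 5.60 and 5.74 with shNCT and 7.80 and 8.06 with shS100A10_1, a rise of 2.26 (SE 0.18; limma, adjusted p = 0.000638). KYNU, the kynureninase of tryptophan breakdown, stood at 5.25 and 5.33 against 6.75 and 6.60, a rise of 1.38. PLAAT4, a phospholipase first known as a retinoid-induced gene, stood at 7.09 and 7.26 against 8.53 and 8.39, a rise of 1.28. PTGES, the terminal synthase of prostaglandin E2, stood at 10.38 and 10.09 against 11.40 and 11.47, a rise of 1.20 and the smallest of the 17. In each of these genes the hairpin arrays lay above the control arrays, a gap that follows from the test that chose them.

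Epithelial membrane and secretory genes were among the rises too. MAL2, which acts in transport of membrane proteins to the apical surface of epithelial cells, had log2 intensities of 8.50 and 8.20 with shNCT and 10.61 and 10.49 with shS100A10_1, a rise of 2.20 (SE 0.18; limma, adjusted p = 0.000877). AGR2, a disulfide isomerase that helps fold mucins in the endoplasmic reticulum, stood at 5.12 and 5.54 against 7.39 and 7.28, a rise of 2.005 (SE 0.19; limma, adjusted p = 0.00199). MPZL2, a cell adhesion gene of epithelia, stood at 5.87 and 5.86 against 7.56 and 7.77, a rise of 1.80 (SE 0.17; limma, adjusted p = 0.00202). AGR2 is also a luminal marker. The 8 other measured luminal markers summed to linear intensities of 73790 and 72769 in the controls and 66450 and 67896 with the hairpin. The keratin genes KRT8, KRT18 and KRT19 make up most of these sums. Of the 8 markers EPCAM was higher in value (0.63) and the other 7 were lower. VGLL3, a cofactor of TEAD transcription factors, rose by 1.23, from 8.44 and 8.68 to 9.81 and 9.78.

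The 14 falls other than S100A10 came from varied pathways. LCTL, a member of the klotho family, had log2 intensities of 5.85 and 5.86 with shNCT and 3.34 and 4.35 with shS100A10_1, a fall of 2.01 on a gene that was dim with the hairpin and differed between its 2 arrays (limma, SE 0.30, adjusted p = 0.0316). GYG2, a glycogenin that primes glycogen synthesis, stood at 7.21 and 7.75 against 5.42 and 5.76. DENND6A, which activates the recycling GTPase RAB14, stood at 11.34 and 11.50 against 9.46 and 9.66. CST7, the gene of the lysosomal inhibitor cystatin F, stood at 8.72 and 8.74 against 6.76 and 7.15. S1PR1, a receptor for sphingosine-1-phosphate, stood at 7.56 and 7.43 against 5.53 and 6.05. These 4 log2 changes were -1.89, -1.86, -1.77 and -1.70 (SE 0.20 to 0.25).

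CPA3, the carboxypeptidase of mast cell granules, had near identical arrays within each group, at 8.60 and 8.58 against 7.01 and 7.05, a log2 change of -1.56. HDC, the other measured mast cell marker, was low throughout, at linear intensities of 24 and 35 in the controls and 26 and 37 with the hairpin. SERINC2, of the serine incorporator family, was the brightest fall after S100A10, at 12.50 and 12.52 against 11.19 and 11.06 (-1.38). Genes of signalling and protein turnover were NRK, a kinase (-1.43), RPS6KA5, the kinase MSK1 that phosphorylates CREB and histone H3 (-1.08, the smallest of the falls), PDLIM2, a PDZ and LIM protein that limits nuclear NF-kB p65 (-1.18), and JOSD1, a deubiquitinase (-1.27). TMED8 (-1.51), UMAD1 (-1.51) and NUBPL, an assembly factor of respiratory complex I (-1.25), completed them. The adjusted limma p of all called genes other than S100A10 lay between 0.00027 and 0.045, with SEs between 0.17 and 0.30.

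Interferon response genes with an unadjusted limma p under 0.05, called the unadjusted mark below, all lay on the higher side. Cells sense double-stranded RNA through RIGI, IFIH1 and DHX58, signal through adaptors to make interferon, and interferon acts through receptors, JAK kinases and STAT and IRF factors on effector genes such as the OAS and IFIT families. Of 85 measured members, 2 rose and 0 fell, where 0.108% of all genes rose and 0.0957% fell, and 22 were higher and 0 lower at an unadjusted limma p under 0.05, 25.9% in all, where 8.48% of all genes passed that mark, 4.31% higher and 4.16% lower. The median log2 difference was 0.13, against 0.01 over all genes, and it stayed between 0.08 and 0.21 in the alternative fits.

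The 2 rises were effectors. OASL, which lacks the synthetase activity of its relatives and enhances RIGI signalling, had log2 intensities of 8.10 and 7.98 with shNCT and 10.49 and 10.59 with shS100A10_1, and rose by 2.50 (SE 0.18, 5.66-fold; limma, adjusted p = 0.000428). IFIT2, an RNA-binding antiviral protein, stood at 8.75 and 8.20 against 10.16 and 10.86, with a wider spread, and rose by 2.04 (SE 0.29; limma, adjusted p = 0.0224). Their relatives differed by less and did not pass: OAS1 by 0.64 and OAS2 by 0.48, IFIT1 by 0.83 and IFIT3 by 0.70. OAS3 (-0.25) and IFIT5 (-0.18) were lower in value, and neither was past the unadjusted mark. IFIT1 stood at 9.67 and 9.41 against 10.30 and 10.46, and IFIT3 at 11.21 and 11.33 against 11.91 and 12.04, so the groups did not overlap in either, as in 42.7% of all genes. Of the 5 measured IFIT genes 3 were past the unadjusted mark, all higher, and the median was 0.70. The same holds for 3 of the 4 OAS and RNase L genes, with a median of 0.56.

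Upstream, 4 of the 6 RNA sensors were higher in value, where 51.0% of all genes were, 2 were lower, and 0 passed. RIGI stood at 10.68 and 10.76 in the controls and 11.68 and 11.90 with the hairpin, a difference of 1.07 (SE 0.20; limma, adjusted p = 0.0821). DHX58 differed by 0.89 and IFIH1 by 0.58, and the median of the 6 sensors was 0.32. Of the 5 adaptors and kinases only STING1, the adaptor of cytosolic DNA sensing, was past the unadjusted mark, with a difference of 0.82. None of the 5 measured interferon genes was, at 0 past an unadjusted limma p under 0.05 in either direction, and their largest difference was 0.33 for IFNG. The 8 JAK, STAT and IRF genes had a median of -0.08 and 0 members past that mark, with IRF3 lowest (-0.47). Among 46 other antiviral effectors 11 were higher at the unadjusted mark and 0 lower, led by IFI44 (0.80), GBP2 (0.69), IFITM1 (0.66) and GBP4 (0.63), with 0 past the adjusted threshold.

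**Figure D2:**
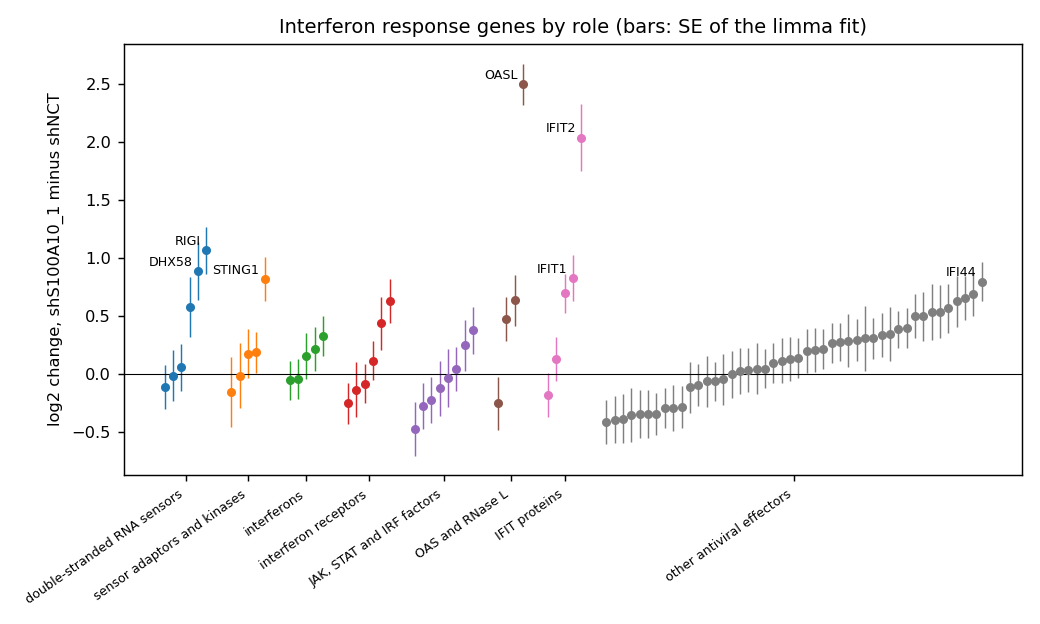
Log2 difference of shS100A10_1 minus shNCT (vertical axis) for the 85 measured interferon response genes, grouped by role along the horizontal axis and ordered by value within a role, with bars for the SE of the limma fit. OASL at 2.50 and IFIT2 at 2.04 stand apart from their families, and the JAK, STAT and IRF factors lie around 0.

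The upstream sequences of the IFIT genes show the element through which interferon-activated factors bind. The letters GAAANNGAAA, the core of the interferon-stimulated response element, were searched on both strands in the 250 bases before the start of each gene, using RefSeq sequences of build GRCh38.p14. They occurred in 317 of 12728 measured genes with a sequence (2.49%), in 26 of 66 interferon response genes (39.4%) and in 3 of 4 IFIT genes. They occurred in 0 of the 9 rises and 0 of the 13 falls that had a sequence, which says only that these letters are not in those windows. OASL and IFIT2 have no entry in the table. IFIT3, the gene next to IFIT2, and IFIT1 are printed because both are past the unadjusted mark and hold matches. Each holds 2 matches, which begin 156 and 122 bases before the start of IFIT3 and 116 and 103 bases before that of IFIT1. The sequences are 100 bases of the plus strand, chr10:89327821-89327920 for IFIT3 and chr10:89392487-89392586 for IFIT1, with the matches, read on the minus strand, in capitals.
IFIT3: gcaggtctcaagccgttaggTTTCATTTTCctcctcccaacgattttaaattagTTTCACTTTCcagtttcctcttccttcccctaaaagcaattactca
IFIT1: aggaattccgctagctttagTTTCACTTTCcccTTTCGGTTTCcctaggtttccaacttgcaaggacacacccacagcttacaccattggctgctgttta

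MHC class I genes, which present peptides to T cells and are raised by interferon, had 0 of 19 members past the adjusted threshold. At an unadjusted limma p under 0.05, where 8.48% of all genes passed, 3 were higher and 0 lower (15.8%). The 6 measured genes of heavy chains and B2M all had positive differences, where 51.0% of all genes did, with a median of 0.38. HLA-G differed by 0.45 and HLA-E by 0.40. TAPBP, the gene of the peptide loading factor tapasin, differed by 0.72, from 12.25 and 11.85 to 12.74 and 12.81. Heavy chain genes are near copies of each other, so their probe sets may share signal.

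In the tumour necrosis factor superfamily, the ligands had the higher median. All 13 measured ligands had positive log2 differences, where 51.0% of all genes did. Their median was 0.18, against 0.07 for the 23 receptors. TNFSF15 alone passed, and TNFSF10, the death ligand TRAIL, differed by 1.03 (8.41 and 8.51 against 9.17 and 9.80; limma, adjusted p = 0.134). TNFSF18 differed by 0.71 at a low level. The receptors went both ways: TNFRSF11B, the decoy receptor osteoprotegerin, was at 0.79, and NGFR, the neurotrophin receptor p75, at -1.06 (8.90 and 9.09 against 7.74 and 8.12; limma, adjusted p = 0.0821). Over the superfamily 4 of 36 members were higher and 1 lower at the unadjusted mark, 13.9% against 8.48% of all genes.

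NF-kB is held in the cytoplasm by inhibitors until kinases release it to switch on inflammatory genes, of which PTX3 is an example outside the list used here. Of 45 pathway members 0 passed the adjusted threshold. At an unadjusted limma p under 0.05, where 8.48% of all genes passed, 10 were higher and 3 lower (28.9%). The target cytokines and adhesion genes held most of these, 8 higher and 1 lower of 22 (40.9%), with a median of 0.31 that stayed between 0.25 and 0.37 in the alternative fits. CXCL1 was at 6.32 and 6.06 in the controls and 6.93 and 7.31 with the hairpin, a difference of 0.93. CXCL8 differed by 0.87, IL1B by 0.66 and ICAM1 by 0.63. The pathway's own parts were mixed: the inhibitor NFKBIA was at 0.61 and the subunit REL at 0.47, whereas the deubiquitinase CYLD was at -0.68 and the ubiquitin ligase BIRC2 at -0.80. The kinases and adaptors had a median of -0.08.

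Cystatin genes changed in both directions. Type 2 cystatins are secreted or lysosomal inhibitors of cysteine proteases such as the cathepsins, and 9 of the measured ones are on chromosome 20. Of 15 measured cystatin genes 2 rose and 1 fell. Past the unadjusted mark were 46.7%, all of them among the 10 of type 2 (70.0%), where 8.48% of all genes passed it. CST1, the gene of cystatin SN, was bright in the controls at 13.10 and 13.20 and reached 15.06 and 14.92 with the hairpin, a rise of 1.84 (SE 0.17; limma, adjusted p = 0.00175). CST4, the gene of cystatin S, rose by 1.35 (12.33 and 12.35 against 13.67 and 13.71). CST2, next to CST1 in the RefSeq order, differed by 1.08 without passing (11.61 and 11.44 against 12.75 and 12.47; limma, adjusted p = 0.0668). CST1, CST2 and CST4 are close copies, and their probe sets may share signal, so their 3 values are uncertain as separate results.

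The other type 2 genes on chromosome 20 did not pass, apart from CST7. CST3, the widely expressed cystatin C, was bright and had overlapping groups, with a difference of -0.06, and CST5 had -0.05. CST11, dim in all arrays, was at 0.90, and CST8 and CST9 were at -0.58 and -0.73. CST7, the last in that order, fell by 1.77. It stands apart from the others, between SYNDIG1 (-0.37) and APMAP (0.11), neither of which passed. Of the proteases that cystatins inhibit, 0 of 16 cathepsin genes passed and 1 was past the unadjusted mark, CTSS, the cathepsin of antigen presenting cells, at 1.15 (limma, adjusted p = 0.0821).

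**Figure D3:**
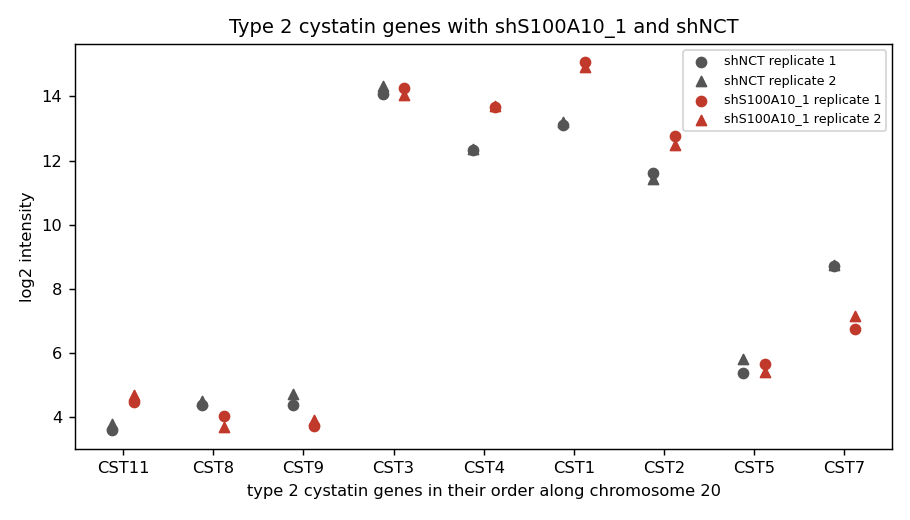
Log2 intensity (vertical axis) of the 9 type 2 cystatin genes measured on chromosome 20, in their order along the horizontal axis, with 1 symbol per array for shNCT and shS100A10_1. CST4, CST1 and CST2 lie higher with shS100A10_1 by 1.35, 1.84 and 1.08, CST7 lies lower by 1.77, and the arrays of CST3 and CST5 overlap.

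The plasminogen system, in which p11 acts, had 16 measured members, of which S100A10 was the only one to pass. The activators stood higher without passing. PLAT, tissue plasminogen activator, was at 14.22 and 14.10 with shNCT and 15.18 and 15.12 with shS100A10_1, a difference of 0.99 (SE 0.17; limma, adjusted p = 0.0647). PLAU, urokinase, was at 13.61 and 13.64 against 14.26 and 14.17, a difference of 0.59 (SE 0.17; limma, adjusted p = 0.318). SERPINI1, an inhibitor of PLAT, was at 0.58, and PLG itself, low in these cells, at -0.43. Of 18 other genes in the S100 list, which includes the S100P-binding protein gene S100PBP, 0 passed, and S100A14 (-0.67) and S100A2 (-0.55) were the 2 past an unadjusted limma p under 0.05. Of 12 annexins 0 passed and only ANXA10 (0.53) was past that mark. The 13 genes of reported p11 partners such as channels and receptors had a median of -0.21, which lay between -0.22 and -0.01 in the alternative fits, with 0 past the adjusted threshold and 1, RNF26 (-0.41), past the unadjusted one.

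Epithelial and mesenchymal genes gave values on both sides with 0 of 28 past the adjusted threshold, and 4 higher and 3 lower at an unadjusted limma p under 0.05 (25%). The mesenchymal factors SNAI1 (-0.56) and SNAI2 (-0.54) and the cadherin gene CDH2 (-0.70) were lower in value. The epithelial genes EPCAM (0.63), EHF (0.49) and CLDN1 (0.46) were higher, and TGFBI, a matrix gene counted as mesenchymal, was at 0.74. SNAI2 was bright and tight, at 14.03 and 13.97 against 13.43 and 13.50. Medians were -0.13 for 12 mesenchymal and 0.01 for 16 epithelial genes. Of the epithelial genes 8 had positive and 8 negative values, and of the mesenchymal ones 5 and 7. MARVELD2 was the lowest epithelial gene at -0.49. CDH1, low in the controls, was at -0.46, and neither was past the unadjusted mark. Integrins had 4 of 17 higher at the unadjusted mark, ITGB4 (0.67), ITGA2 (0.63), ITGB8 (0.61) and ITGA10 (0.44), and 0 lower. That was 23.5%, where 8.48% of all genes passed the mark. In value 8 integrins were higher and 9 lower, ITGAV lowest at -0.43, and the median was -0.01. Of 24 collagens and laminins 2 were higher and 5 lower at that mark (29.2%), with COL4A5 at 0.92 and COL6A3 at -0.53. MMP1, the interstitial collagenase, was the 1 of 19 matrix metalloproteinase and inhibitor genes past that mark, at 12.55 and 12.67 against 13.56 and 13.72 (difference 1.03, SE 0.17; limma, adjusted p = 0.0647).

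Lists drawn up around the called enzymes and receptors mostly held no other called gene. They were built around genes already known to change, so the 1 called gene in each is given by the choice. In glycogen metabolism GYG2 alone among 25 genes was past the unadjusted mark, and its relative GYG1, the glycogenin of muscle, was at 0.25. S1PR1 alone was past it among 13 genes of sphingosine-1-phosphate signalling. AGMO was the only rise among 16 ether lipid genes, where PLA2G7 was at 0.63 and LPCAT1, which makes platelet-activating factor, at -0.72, and the 7 genes of tetrahydrobiopterin synthesis had a median of 0.19 with only PCBD1 (0.43) past the unadjusted mark. AGR2 alone was past it among 18 disulfide isomerase genes, and MAL2 alone among 14 MARVEL genes. Beside DENND6A, 3 other DENN genes, activators of RAB GTPases, were lower at the unadjusted mark, DENND2A (-0.65), DENND2B (-0.63) and AVL9 (-0.55), and 0 of 21 were higher.

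Some of these lists held further members past the unadjusted mark. In the kynurenine pathway AFMID (0.66) and IDO1 (0.58) stood beside KYNU, 3 of 10 higher. The list's median was -0.14 and did not keep its sign, reaching 0.15 in the alternative fits. PLAAT3 was at 0.50 beside PLAAT4, and all 5 PLAAT genes had positive values, where 51.0% of all genes did. In the retinoid response RARB (0.85) was higher in value and CRABP2 (-0.66) and CYP26B1 (-0.64) lower. Among chemoattractant receptors CMKLR2, another chemerin receptor, was at -0.75 (10.39 and 10.35 against 9.51 and 9.73) while CMKLR1 rose.

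Of the growth, energy and protein synthesis genes listed, 0 passed the adjusted threshold. DNA replication genes were lower in value in 30 of 37 cases, with a median of -0.14 that stayed between -0.22 and -0.10 in the alternative fits. Over all genes, 51.0% had a difference above 0, and members of a list share the same arrays, so their signs are not independent. At the unadjusted mark 0 were higher and 4 lower (10.8%, near the 8.48% of all genes), and those were GINS2 (-0.49), GINS1 (-0.46), MCM10 (-0.45) and TK1 (-0.44). Replication-dependent histone genes, which are transcribed in S phase and are near copies of each other, were lower in value in 46 of 56 cases, with a median of -0.15 that lay between -0.26 and -0.05 in the alternative fits. The 30 mitosis genes had a median of 0.00206 and 0 members past the unadjusted mark. Oxidative phosphorylation (37 genes, median -0.03) and glycolysis (20 genes, median -0.01) also had 0 members past it, as did 35 proteasome genes. Of 51 cytosolic ribosomal protein genes 1 was higher and 1 lower at that mark, and of 74 mitochondrial ones 0 and 1. The RNA interference machinery, 12 genes, had 0 past it.

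**Figure D4:**
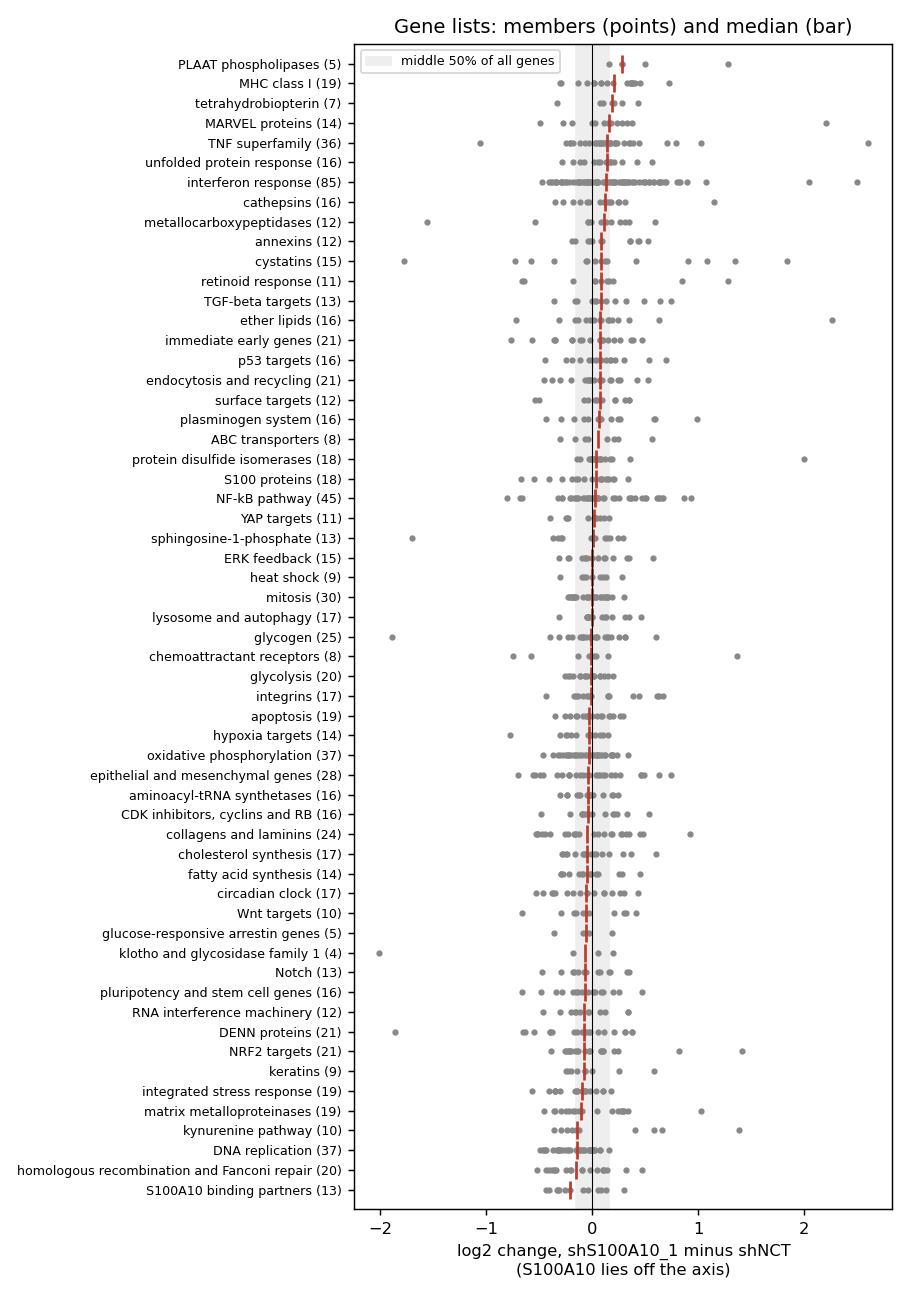
Log2 difference of shS100A10_1 minus shNCT (horizontal axis) for the members (grey points) of each gene list with at least 3 measured members, with the list's median as a red bar, the number measured in parentheses and the middle 50% of all genes shaded. Nearly every median lies inside the shaded band, from -0.15 to 0.16, and the PLAAT phospholipases, MHC class I genes and tetrahydrobiopterin genes lie above it, the homologous recombination genes lie at its lower edge and the S100A10 binding partners below it.

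Over the 58 lists described, 16 held a member past the adjusted threshold. Many of those were built around a called gene, so that count is in part given by the choice of lists. Medians were above 0 in 28 lists and below 0 in 30. Only 2 exceeded 0.2, those of the MHC class I genes and of the PLAAT genes, a list built around PLAAT4, and 1 lay under -0.2. The middle 50% of all genes ran from -0.15 to 0.16. The unfolded protein response had a median of 0.14 with DNAJB9 (0.56) as its 1 gene past the unadjusted mark, and among 21 NRF2 targets AKR1C1 (1.41; limma, adjusted p = 0.0527) and AKR1C3 (0.82) stood apart from a median of -0.07. AKR1C1 stood at 7.06 and 6.50 against 8.11 and 8.27, and it shares sequence with other AKR1C genes, so its probe sets may share signal. Among 21 immediate early genes EGR1 (-0.76) and EGR3 (-0.57) were lower in value and JUNB (0.47) higher. Of 16 p53 targets MDM2 (0.70) and CDKN1A (0.54) were higher in value and SESN1 (-0.44) lower.

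Several genes that did not pass were as large in value as those that did. TCN1, a vitamin B12 binding protein, differed by 1.38, the gap junction gene GJB2 by 1.28, TMEM45B by 1.19, TMC5 by 1.17, TCP11L2 by 1.12, EREG, an EGF receptor ligand, by 1.12, HS3ST1, which sulfates heparan chains, by 1.11 and LRATD2 by 1.05. On the lower side MEST, an imprinted gene, was at -1.26, CORO2B at -1.16, LYPD6B at -1.14, PRR5L at -1.11, the microtubule depolymerase KIF2A at -1.09, KLHL15 at -1.06, AKIRIN1 at -1.05, BOLA3 and DIABLO, both mitochondrial, at -1.02 each, and CFAP52 and RAB15 at -1.0 each. The 2 control arrays of MEST, for example, lay apart at 9.57 and 8.95. In all, 21 probe sets were higher and 14 lower at an adjusted limma p from 0.05 to 0.1, several of those just named among them.

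By mean intensity over the 6 arrays, called changes lay mostly in the middle class and the class above it. Probe sets were put into 5 classes of 3393 by mean log2 intensity over the 6 arrays. The SD of the difference between the shNCT arrays was 0.350 in the dimmest class, 2.57 to 4.63, and 0.163 in the brightest, 11.3 to 17.6. The dimmest class held 0 rises and 0 falls by the adjusted limma p, where the unadjusted p was under 0.05 for 142 higher and 141 lower ones. Over all probe sets that share was 8.44%, 4.28% higher and 4.16% lower. The middle class, 6.55 to 9.10, held the most, 6 rises and 7 falls, and the class above it 5 rises and 5 falls. The brightest held 3 rises, CST1, PTX3 and CST4, and 2 falls, S100A10 and SERINC2. Past the unadjusted mark were 8.34%, 9.70%, 10.7%, 8.13% and 5.31% of the classes from dim to bright. The classes' median differences lay between -0.0033 and 0.017.

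Rises and falls overlapped widely in control level. The median control level was 7.98 for the 17 rises and 9.08 for the 14 falls other than S100A10, where the median probe set was at 7.87. Of the rises 8 lay under that median and 3 above the upper quartile of 10.7. Of the falls including S100A10, 4 lay under the median and 5 above the upper quartile. Sorting by the control arrays alone gives a different count in the dimmest class, 178 higher against 99 lower at the unadjusted mark. The control arrays then enter both the sorting and the difference. In that sorting the middle class held 7 rises and 6 falls, and the class above it only 1 rise and 4 falls. The class below the middle held 6 rises and 1 fall, and the brightest 3 rises and 4 falls.

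**Figure D5:**
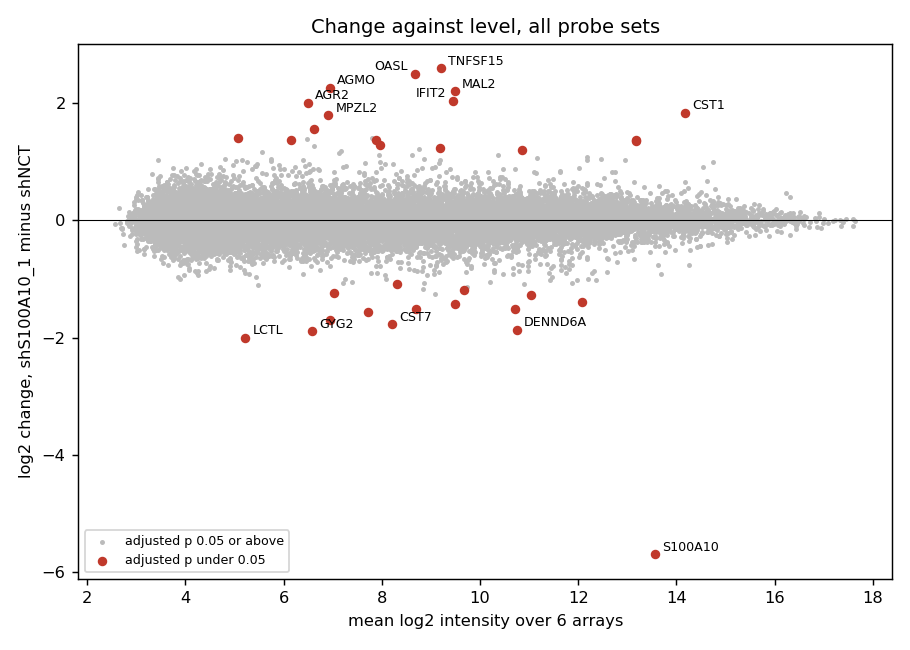
Log2 difference of shS100A10_1 minus shNCT (vertical axis) against mean log2 intensity over the 6 arrays (horizontal axis) for all 16965 probe sets, with the 32 that passed the limma test in red. All called genes lie above the dimmest class of 2.57 to 4.63, and S100A10 stands alone at -5.70.

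The difference between shS100A10_5 and shS100A10_1 was tested for each called gene. It passed for 18 of the 32 genes (limma, adjusted p under 0.05), where 2.91% of all probe sets passed, but the shS100A10_1 arrays that chose the genes also enter the difference. Without shS100A10_5 replicate 2 it passed for 3. Of the 14 falls other than S100A10, 11 differed, and in those the log2 change with shS100A10_5 ran from -0.80 to 0.45 with a median of 0.04. S1PR1, SERINC2 and JOSD1, for example, were at 0.04, 0.07 and 0.01 with shS100A10_5. CPA3, UMAD1 and PDLIM2 were not shown to differ, with changes from -1.06 to -0.60 with shS100A10_5. Against the control only CPA3 passed with that hairpin (limma, adjusted p = 0.0271), and UMAD1 (0.143) and PDLIM2 (0.0694) did not.

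Of the 17 rises 6 differed between the hairpins. OASL was at -0.62 with shS100A10_5 (limma, adjusted p of the difference = 0.000147), PTX3 at -0.19 and CD180 at -0.36, values below the control. None of these changes from the control passed with shS100A10_5 (limma, adjusted p = 0.0928, 0.586 and 0.376). TNFSF15 (1.08) and MAL2 (1.23) were higher than the control with either hairpin, but less so with shS100A10_5, and CMKLR1 was higher there, at 2.47. The 11 rises not shown to differ, among them CST1, CST4, AGMO, AGR2, MPZL2, LYZ and KYNU, had changes from 0.63 to 1.55 with shS100A10_5. Of these, IFIT2 (0.90), VGLL3 (0.63) and PTGES (0.67) did not pass against the control with shS100A10_5 (limma, adjusted p = 0.113, 0.105 and 0.0738). The hairpins share their control arrays, and S100A10 itself was lower with shS100A10_1 by 2.70 on the log2 scale, so the hairpin sequence and the remaining S100A10 level cannot be told apart here.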

How the data were processed

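Biotin-labelled cDNA made from total RNA was hybridised to whole-transcript arrays, according to the protocols in the labels. The deposited table holds 1 normalized linear intensity per probe set and array, made by the authors with Transcriptome Analysis Console, per the submitters' processing notes; for its version, its normalization and the array's genome build the sources used here give nothing. The log2 of the deposited intensities was used as it stood. The number of arrays, 2 a group, limits the precision.

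Samples were grouped by their titles. Group means over the 6 arrays were estimated with limma 3.58.1 (lmFit and eBayes) in R 4.3.3, with 3 residual and 7.16 prior degrees of freedom, two-sided, and Benjamini-Hochberg adjustment over all 16965 probe sets at 0.05. The fit was tested on simulated data. Lists are described by counts and medians on 1 probe set per gene, the brightest. No detection calls, scan dates or batches are used here.

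The genes and lists described were chosen with earlier results of these data known. Named genes are S100A10, ANXA2, every gene past the threshold, the 12 largest rises and falls in value among those with an unadjusted p under 0.05 that did not pass, up to 4 members per list or role with the smallest p under that mark, and the 3 measured neighbours of S100A10 on each side. The highest or lowest members of a list, and symbol families, were named after their values were seen. Alternatives were quantile normalization, median centring, a filter on dim probe sets, an intensity trend, robust hyperparameters, a block for the replicate number, array weights, the 4 arrays alone, probe sets with a symbol, 1 probe set per gene, other thresholds, and each array left out. Gene order came from RefSeq's GRCh38.p14 annotation, and upstream sequences from its promoter table.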

Additional observations from a re-analysis of the deposited data

How the results depend on the processing

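All 32 called genes kept their direction in the 16 alternative fits. The count of 32 became 60 without the dimmest 25% of probe sets, 98 with an intensity trend, 89 with array weights and 16 with only the 4 arrays compared. It became 12 at an adjusted p under 0.01 and 67 under 0.1. With 1 array left out it lay between 8 and 16, on fewer arrays. The cause of the larger counts was not tested. Of the 31 called genes other than S100A10, 7 passed in every fit. The S100A10 log2 change with shS100A10_1 lay between -5.53 and -5.88. The count of 18 genes that differed between the hairpins lay between 3 and 17 with 1 array left out. Among the 132 single genes below the threshold whose values were followed through these fits, 29 passed it in at least 1 fit. Of the 132, 2 changed sign, both without shNCT replicate 2. The ANXA2 log2 change became 0.0312 (range with 1 array left out -0.116 to 0.0312) and the THEM5 log2 change -0.0398 (range -0.0398 to 0.22). Of 58 lists, 27 kept the sign of their median in every fit. The labels state no pairing of the samples by replicate number. The replicate differences of the 3 groups correlated at -0.0223, -0.035 and 0.188, which cannot show whether the replicates were handled as pairs. With the replicate number as a block 33 probe sets passed. No detection calls are used here, so signal near background limits the dim genes.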

Other observations

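Gene families defined by their symbols were described beside the lists. Of 68 families, 1 held a member past the adjusted limma threshold, the phospholipases A2 through PLAAT4. Among 32 CC and CXC chemokine genes, 6 were higher and 2 lower at an unadjusted limma p under 0.05 (25%), with CXCL11, an interferon-induced ligand of CXCR3, highest in value at 1.04. Of 25 protocadherins 5 were higher and 2 lower (28.0%), led by PCDHB15 at 0.69. The clustered protocadherins share sequence, so their probe sets may share signal. Of 35 interleukin genes 5 were higher and 2 lower (20%), from IL24 at -0.70 to IL1B at 0.66. The 28 semaphorin and plexin genes had 3 on each side, with PLXNA3 lowest at -1.0. Over all genes the share past that mark was 8.48%. The 7 guanylate-binding protein genes had the family median farthest from 0, at -0.28, although GBP2 and GBP4 were higher in value. That median lay between -0.29 and 0.17 in the alternative fits. The 450 zinc finger genes had 16 higher and 9 lower (5.56%), and the 186 olfactory receptor genes, mostly dim, 11 on each side (11.8%).

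The genes beside the called genes in the RefSeq order gave 62 further measured genes. Of these 8 had an unadjusted limma p under 0.05 (12.9%), and CST4 and CST1 were the only adjacent pair in which both genes passed.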
